A study of Mus musculus with 76 samples.

Results

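Kidney RNA of mice after partial nephrectomy (PNx), the surgical removal of part of the kidney mass, was compared with kidney RNA of mice after sham surgery. The study asks about Na/K-ATPase signalling of adipose tissue in uremic cardiomyopathy, the heart disease that accompanies kidney failure, and the kidney is the organ its surgery damages. The comparison was formed from the labels for tissue, surgery and transplantation and held 10 of the 74 samples of the series. There were 5 Kidney PNx and 5 Kidney Sham samples, and Sham 3 was sequenced as an additional library whose counts were added to it, so that 11 of the 76 deposited libraries were used. All samples were from male SCID mice of the Fox Chase stock (CB17/Icr-Prkdcscid/IcrlcoCrl), 12 weeks of age. These mice carry the scid allele of Prkdc and lack working T and B lymphocytes in both groups. Neither group received cells. The other kidney groups, which had partial nephrectomy together with transplantation of Control Cells, NaKtide Cells or Scrambled Cells, entered the fit over 25 samples, where they bore on the estimate of the spread, on the scaling and on which genes had enough counts to be tested. The labels do not give the amount of kidney removed, the piece of kidney taken for RNA, the time since surgery or the hour of collection. They also do not say that the 5 samples of a group were separate animals, so that p-values measure the spread between these samples, which may be technical in part.

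The kidney filters blood in the glomerulus, where podocytes form the outer layer of the filter, and the filtrate then passes along the nephron. The proximal tubule takes back most of the salt, glucose, amino acids and phosphate and burns fat to pay for it. The thick ascending limb, distal convoluted tubule, connecting tubule and collecting duct then adjust salt, calcium, acid and water. When part of the kidney is lost, the tubules that remain are known to enlarge and some of their cells divide, and damaged tubule cells are known to lose transporters and to switch on injury genes. Values below are CPM, the share of a library's counts that fell on the gene, scaled by the trimmed mean of M-values, in each library, in the order PNx 1 to 5 and then Sham 1 to 5. Changes are log2 fold changes of PNx over Sham from edgeR's quasi-likelihood test with their standard errors (±), and p-values are adjusted by the Benjamini-Hochberg method over the 16307 genes tested. A gene rose or fell where the adjusted p was under 0.05.

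The libraries held 6157325 to 16912788 counts and carried the markers of kidney. Slc34a1, the sodium-phosphate cotransporter of the proximal tubule, was at 1395 to 4103 CPM in the PNx libraries and 3370.4 to 4198 in the Sham libraries. Umod, the uromodulin of the thick ascending limb, was at 1696 to 3578 and 2038 to 2472. Of the 12 lymphocyte markers only 3 had enough counts to be tested and 3 had no count in any library.

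Of the 16307 genes, 2742 changed (16.8%), 1509 of them upward (9.25%) and 1233 downward (7.56%), beside a median log2 fold change of 0.053 over all genes. The PNx libraries did not form a single group. The first principal component of the 1000 most variable genes held 62.5% of their variance and placed PNx 3, 4 and 5 at 63.0, 33.8 and 35.7, PNx 1 and 2 at -10.4 and -13.2 and the Sham libraries between -28.0 and -15.9. The median gene of PNx 3, 4 and 5 lay 0.880, 0.584 and 0.684 from the Sham mean on the log2 scale, that of PNx 1 and 2 0.199 and 0.174, and those of the Sham libraries themselves 0.0959 to 0.127. PNx 3, 4 and 5 thus stood apart from Sham over most genes, while PNx 1 and 2 lay much closer to it. The labels name no difference between PNx 1 and 2 and PNx 3 to 5.

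Gene length moved with that division. The length index, the mean log2 CPM of the shortest 0.25 of genes minus that of the longest 0.25, was -0.992, -1.08, 0.162, -0.00209 and 0.169 in PNx 1 to 5 and -1.11 to -0.926 in the Sham libraries. The difference between the group means was 0.685, with p = 0.0873 in a 2-sided exact permutation test over the 10 libraries, where the smallest p possible is 0.00794. It was 0.869 without PNx 2, with an exact permutation p of 0.0476, and 0.556 to 0.846 with p over 0.05 without any other library. The share of counts on mitochondrial genes was 6.57 ± 1.91% (SD, n = 5) in PNx and 8.15 ± 0.923% (SD, n = 5) in Sham, with an exact permutation p of 0.159, and without PNx 1 the difference was -2.31 percentage points with p = 0.0317. Both measures differ with RNA quality in general, and their part in the results was not tested. The number of calls depended on single libraries. Leaving out PNx 1 or PNx 2 gave 5768 or 6534 calls, leaving out PNx 3, 4 or 5 gave 307, 719 or 933, and leaving out Sham 1 to 5 in turn gave 706, 647, 704, 384 and 1116. In all 11 fits 247 genes were called (1.51%), 119 of them as rises (0.73%) and 128 as falls (0.785%). These are called stable below, which speaks of these 11 fits alone. Of 58 counts above 0 of genes called in a list and direction, 55 moved by over 1.5 times without at least 1 of the 10 libraries, and the 3 that did not were the rises of mitosis genes, the falls of clock genes and the single fall of an immediate early gene. Of the 247, 60 were also called with the length index as a covariate and without PNx 3 to 5 and Control Cells 4 and 5, the libraries of highest length index. With only PNx and Sham in the fit 146 of 14911 genes were called (0.979%), with the length index as a covariate 571 (3.5%), without PNx 3 to 5 2 of 17059 (0.0117%), and without these and Control Cells 4 and 5 97 of 16957 (0.572%).

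**Figure D1:**
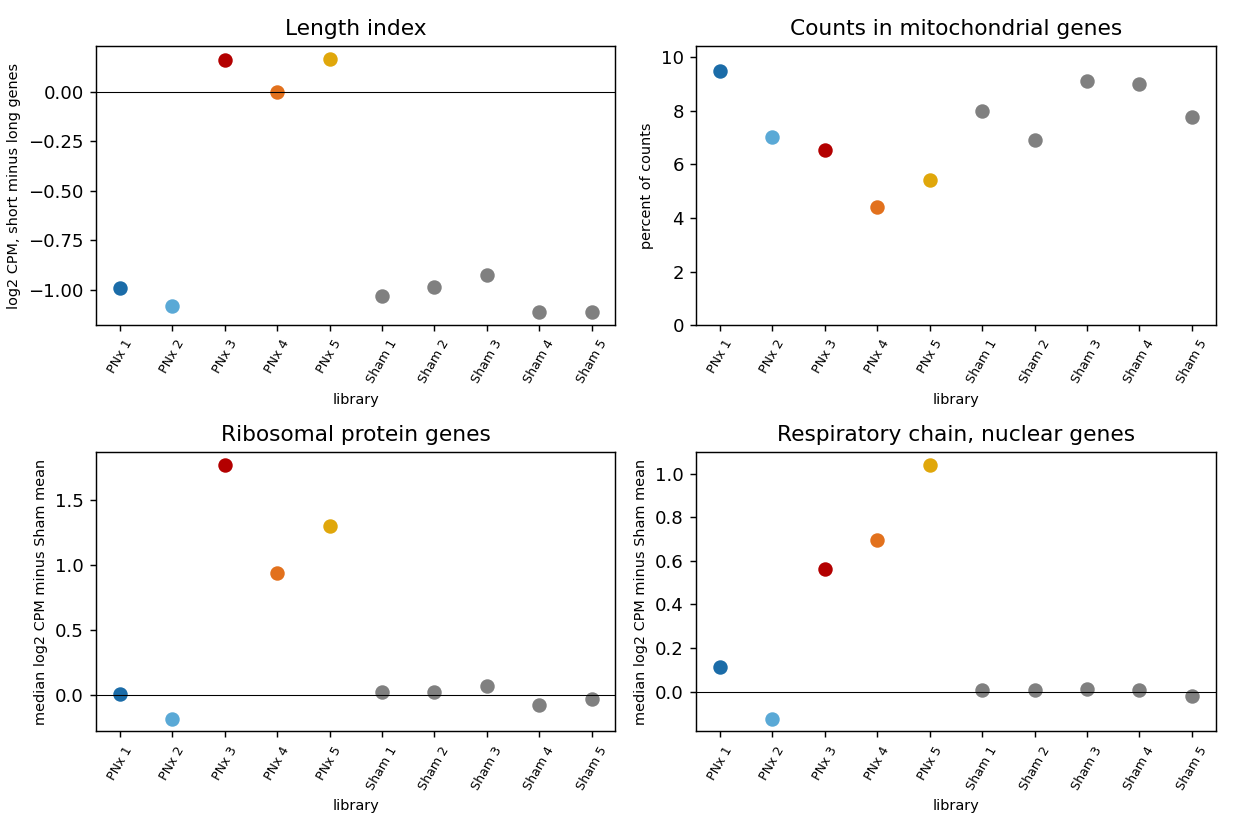
Length index (log2 units), share of counts on mitochondrial genes (percent) and the median log2 difference from the Sham mean of ribosomal protein genes and of nuclear respiratory chain genes, 1 point for each of the 5 PNx (coloured) and 5 Sham (grey) libraries. PNx 3, 4 and 5 have a length index of -0.00209 or more, while PNx 1 and 2, at -0.992 and -1.08, lie within the Sham range. The ribosomal protein and respiratory chain medians are far higher in PNx 3, 4 and 5 than in the other libraries.

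Counts of rises and falls in a list stand beside the 9.25% of all genes that rose and the 7.56% that fell. Of the 49 gene lists, that of mitosis held the most stable rises. Of 24 listed genes of spindle, chromosome segregation and cytokinesis, 21 had enough counts to be tested and 15 of these rose, none fell, and the median log2 fold change was 1.73. Of the rises, 11 were stable, and 16 genes rose with the length index in the fit, where 1.61% of all genes did. The 3 members left out of the test had 26 to 52 counts over the kidney libraries, and with no filter on low counts 13 of 24 rose. The median log2 difference from the Sham mean was 1.67, 1.68, 1.6, 1.08 and 1.51 in PNx 1 to 5, against -0.3 to 0.32 in the Sham libraries, so that PNx 1 and 2, close to Sham over most genes, lay as high as PNx 3 to 5. With PNx 1 and 2 alone against Sham no mitosis gene was called by edgeR, although 19 of the 21 had an unadjusted p under 0.05, and 9 rose when Control Cells 4 and 5 were left out as well, with a median log2 fold change of 1.73.

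Cdk1 (chr10:69335146-69352938, minus strand), the kinase that drives entry into mitosis, was at 4.55, 4.58, 4.34, 4.14 and 6.31 CPM in PNx 1 to 5 and at 1.51, 1.01, 1.87, 1.18 and 1.05 in Sham 1 to 5. Every PNx library was above every Sham library, as in 5.23% of all genes (7.68% lay below), and Cdk1 rose 3.51-fold (log2 fold change 1.81 ± 0.25, adjusted p = 0.00101). Birc5 (chr11:117849251-117855743, plus strand), survivin of the chromosomal passenger complex, was at 3.77, 3.04, 5, 4.14 and 7.15 CPM after PNx and 1.04, 0.56, 1.18, 1.18 and 1.17 after sham surgery. Its groups did not overlap either (log2 fold change 2.14 ± 0.31, adjusted p = 0.00124). Ube2c (chr2:164769898-164778822, plus strand), which gives the anaphase-promoting complex its ubiquitin, was at 2.73, 3.52, 7.49, 5.05 and 4.76 CPM and 0.189, 0.896, 1.04, 1.35 and 0.586 CPM. The lowest PNx library was above 1.35, the highest Sham library (log2 fold change 2.55 ± 0.40, adjusted p = 0.00249). Cdc20 (chr4:118432901-118437352, minus strand), the activator of that complex, was at 6.37, 7.04, 11, 6.73 and 9.39 CPM after PNx and 1.99, 1.34, 2.91, 2.19 and 1.64 after sham surgery. It rose with no overlap (log2 fold change 1.99 ± 0.33, adjusted p = 0.00289). Mki67, the nuclear protein Ki-67 used to count cycling cells, was at 11.8, 13.5, 13.7, 7.89 and 7.43 CPM and 2.27, 1.79, 3.12, 3.87 and 3.4 CPM and rose (log2 fold change 1.92 ± 0.36, adjusted p = 0.00471). All 5 of these genes were stable, and all were low, at no more than 13.7 CPM in any library. In bulk tissue more cells in mitosis and more of these RNAs per cell cannot be told apart, and the same holds for every cell type named below.

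**Figure D2:**
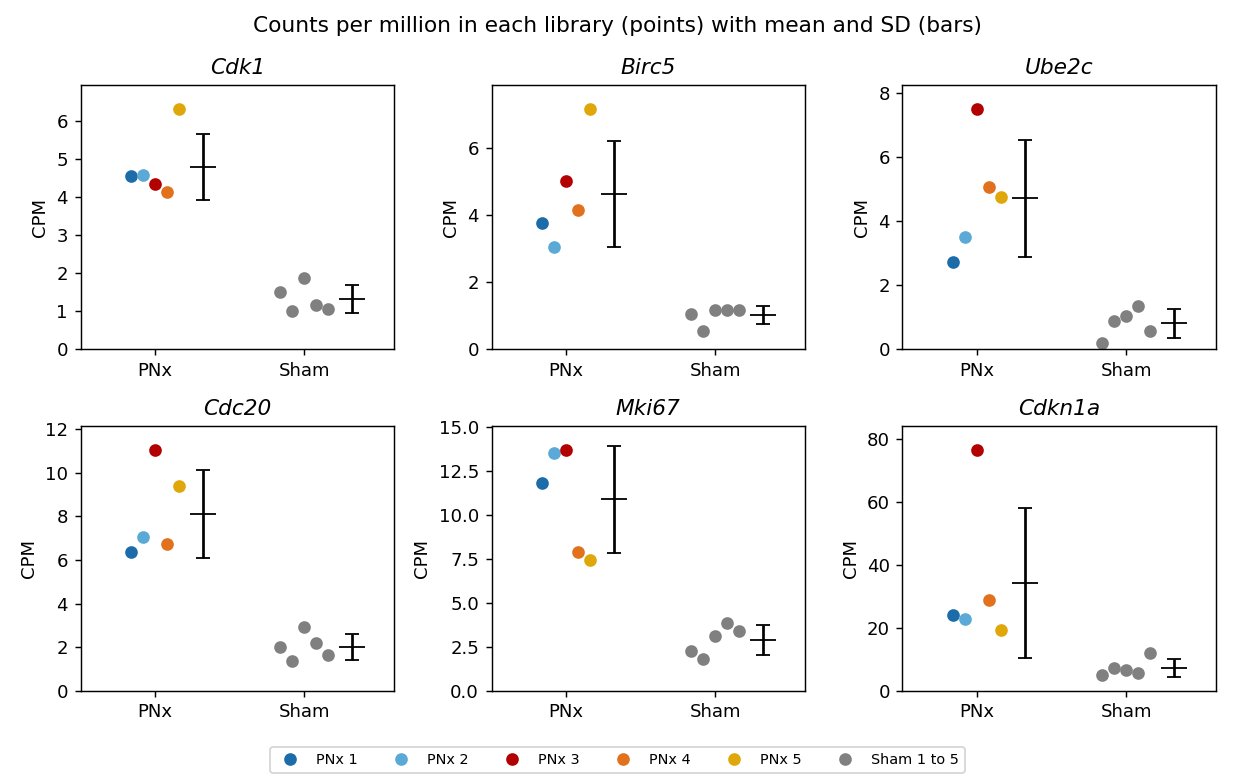
Level of 5 mitosis genes and of Cdkn1a in CPM in each of the 5 PNx (coloured) and 5 Sham (grey) libraries, with the mean and SD of each group as bars. For Cdk1 the PNx libraries lie between 4.14 and 6.31 CPM and the Sham libraries between 1.01 and 1.87 CPM, and in every panel the groups are apart.

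Promoters of mitosis genes are known to carry the cell cycle homology region (CHR, searched as TTTGAA) and CCAAT boxes (searched as CCAAT). The CHR is read by MuvB complexes, of which DREAM holds these genes off in resting cells. Both motifs were searched on both strands. RefSeq promoter windows of 300 bases (250 before to 50 after the start, GRCm38.p6) were at hand for 17 of the 24 mitosis genes. A CHR was in 13 of the 17 (76.5%) against 12% of the 10871 windows of tested genes. A CCAAT box was in 15 (88.2%) against 38.5%, and both were in 13 (76.5%) against 4.99%. CCAAT boxes were nearly as frequent in windows of DNA replication genes (13 of 18, 72.2%) and of clock genes (12 of 16, 75%). Shown are the windows of the 4 called genes of lowest p in edgeR's test among those with a window, all of them stable and named above. They are in lower case with CHR and CCAAT matches, on either strand, in capitals.
Cdk1, chr10:69352863-69353162, minus strand: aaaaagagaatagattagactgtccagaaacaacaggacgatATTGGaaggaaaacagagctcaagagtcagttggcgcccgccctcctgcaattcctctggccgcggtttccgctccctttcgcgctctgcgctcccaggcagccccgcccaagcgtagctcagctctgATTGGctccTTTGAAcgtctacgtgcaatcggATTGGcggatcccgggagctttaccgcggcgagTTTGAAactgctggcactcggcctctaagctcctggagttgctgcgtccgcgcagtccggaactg
Ube2c, chr2:164769679-164769978, plus strand: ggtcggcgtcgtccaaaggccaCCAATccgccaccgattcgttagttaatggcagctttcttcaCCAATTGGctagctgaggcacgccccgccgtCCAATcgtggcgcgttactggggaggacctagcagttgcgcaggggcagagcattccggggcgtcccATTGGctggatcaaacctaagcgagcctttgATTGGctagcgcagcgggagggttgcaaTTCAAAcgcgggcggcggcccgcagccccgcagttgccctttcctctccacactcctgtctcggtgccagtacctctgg
Cdc20, chr4:118437294-118437593, minus strand: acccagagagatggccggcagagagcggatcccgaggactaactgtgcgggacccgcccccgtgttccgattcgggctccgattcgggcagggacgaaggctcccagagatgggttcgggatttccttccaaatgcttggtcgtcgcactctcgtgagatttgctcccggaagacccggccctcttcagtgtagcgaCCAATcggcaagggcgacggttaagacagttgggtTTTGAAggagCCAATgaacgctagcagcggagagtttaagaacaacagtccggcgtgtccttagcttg
Birc5, chr11:117848987-117849286, plus strand: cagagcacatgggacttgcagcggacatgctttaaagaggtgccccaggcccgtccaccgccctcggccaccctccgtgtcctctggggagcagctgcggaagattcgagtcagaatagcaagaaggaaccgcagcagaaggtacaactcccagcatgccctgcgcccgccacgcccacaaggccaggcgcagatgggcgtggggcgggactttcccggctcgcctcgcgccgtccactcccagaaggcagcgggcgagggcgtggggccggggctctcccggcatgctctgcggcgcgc
The windows of Cdk1, Ube2c and Cdc20 held both motifs and that of Birc5 held neither, although its rise was of the same order. A match is a description of the letters and not a bound site.

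The genes of DNA synthesis, which acts before mitosis, were called less often. Of 23 tested members of 25 listed, 6 rose and none fell, and the median log2 fold change was 0.1. The number of rises was 2 without PNx 3 and 7 without PNx 1. The CHR was in 2 of 18 of their promoter windows (11.1%), a share near that of all windows. Tyms, thymidylate synthase, was at 15.9, 15.8, 18.4, 19 and 23 CPM after PNx and 11.5, 12.5, 10.7, 8.58 and 9.14 after sham surgery and rose (log2 fold change 0.8 ± 0.17, adjusted p = 0.0109). Rfc3, a subunit of the clamp loader, was at 7.15, 5.6, 8.68, 6.6 and 6.87 CPM and 4.35, 4.26, 4.5, 3.87 and 3.51 CPM and rose (log2 fold change 0.76 ± 0.15, adjusted p = 0.00801). Both were stable and neither overlapped between the groups. Gins2, of the replicative helicase, also rose. Gins2 had a log2 fold change of 1.36 ± 0.31, adjusted p = 0.0137, and its call ended without PNx 3 (adjusted p 0.0525). Among 15 tested cyclins and inhibitors of the G1 phase, 2 rose and 3 fell. Cdkn1a (chr17:29090976-29100727), the p21 inhibitor of cyclin-dependent kinases and a target of p53, was at 23.9, 22.9, 76.5, 28.9 and 19.3 CPM after PNx and at 5.01, 7.06, 6.58, 5.55 and 12.1 after sham surgery. The lowest PNx library was above the highest Sham library, and Cdkn1a rose (log2 fold change 2.24 ± 0.36, adjusted p = 0.00249) and was stable. Ccnd1, cyclin D1, went the other way at 192, 180.2, 103, 158 and 128 CPM against 255, 288, 227, 278 and 191 CPM. Ccnd1 had a log2 fold change of -0.7 ± 0.19, adjusted p = 0.0277, and its call ended without PNx 3, 4 or 5 or Sham 1, 2 or 4 (adjusted p 0.0546 to 0.105). Of 18 targets of p53, 4 rose and none fell with a median log2 fold change of 0.034, and the number of rises was 2 without PNx 3 or 5 or Sham 1, 2, 4 or 5 and 6 without PNx 1 or 2. Besides Cdkn1a, Gdf15, a stress-released cytokine of the TGF-beta family, was at 11.4, 13.5, 27, 13.5 and 20 CPM and 8.51, 5.04, 5.47, 5.22 and 12.7 CPM and its rise was stable (log2 fold change 1.2 ± 0.26, adjusted p = 0.0122), although Sham 5 overlapped PNx 1.

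The list of circadian clock genes held the most stable falls. In the clock, Arntl (BMAL1) with Clock or its relative Npas2 switches on the Per and Cry genes, whose proteins then block them, and Nr1d1, Nr1d2 and Rora set the level of Arntl. Output factors such as Dbp, Tef and Hlf carry the rhythm to other genes, and all these RNAs rise and fall over the day. Of the 19 genes of the list, 9 fell, 2 rose and the median log2 fold change was -0.84. Of the falls, 6 were stable, and the number that fell was 7 without PNx 3 or 4 or Sham 2, 3 or 4 and 10 without PNx 5. The median log2 difference from the Sham mean was -0.86, -0.71, -1.04, -0.92 and -0.62 in PNx 1 to 5. With only PNx and Sham in the fit 5 fell and none rose. Without PNx 3 to 5 none was called by edgeR, with 15 of 19 at an unadjusted p under 0.05, and without Control Cells 4 and 5 as well 5 fell and 2 rose. The hour at which each kidney was taken is not given in the sources used here, and its part in these differences was not tested.

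Per2 (chr1:91415982-91459324), a repressor of the loop, was at 6.11, 8.85, 10.8, 4.4 and 12.3 CPM in PNx 1 to 5 and 32.9, 22.1, 32.9, 33.3 and 48.1 in Sham 1 to 5. Every PNx library was at or under 12.3 and every Sham library at or over 22.1 (log2 fold change -1.99 ± 0.33, adjusted p = 0.00249). Per3 (chr4:151003652-151044665, minus strand), its relative, was at 7.02, 9.7, 7.76, 5.05 and 10.1 CPM and 29.9, 25.9, 23.4, 32.5 and 31.3 CPM. It fell 3.58-fold (log2 fold change -1.84 ± 0.30, adjusted p = 0.00249), with no overlap. Nr1d2 (REV-ERB beta), a repressor of Arntl, was at 48.5, 54.3, 19.2, 20.7 and 33.9 CPM against 104, 95.4, 97.9, 113 and 88.9 CPM (log2 fold change -1.49 ± 0.26, adjusted p = 0.00344). The output factors Hlf (log2 fold change -1.02 ± 0.20, adjusted p = 0.0067) and Tef (log2 fold change -0.84 ± 0.19, adjusted p = 0.0127) fell as well, with 90.9, 98.7, 43.3, 61 and 103 CPM of Hlf after PNx and 162, 157, 151, 177 and 158 after sham surgery. Tef was at 164, 192, 140.3, 182 and 285 CPM and 325, 366, 316, 384 and 339 CPM, and PNx 5 was closest to the Sham range in both genes. Bhlhe40 (DEC1), another repressor, was at 48.9, 54.2, 46.8, 47.9 and 53.4 CPM against 83.6, 96.8, 84.2, 99.3 and 80.9 CPM (log2 fold change -0.82 ± 0.19, adjusted p = 0.0137). Wee1, a kinase that holds back mitosis and whose gene is a known target of the clock, was at 7.8, 8.85, 4.6, 2.72 and 4.34 CPM after PNx and 22.7, 20.3, 22.4, 23.7 and 21.2 after sham surgery. It fell and was stable (log2 fold change -1.93 ± 0.31, adjusted p = 0.00249).

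The activators Arntl and Npas2 were higher, but not in every PNx library. Arntl was at 6.37, 9.33, 1.31, 3.75 and 0.841 CPM in PNx 1 to 5 and 1.42, 1.34, 1.11, 0.505 and 0.586 in Sham 1 to 5, so that PNx 1, 2 and 4 were above all Sham libraries, while PNx 3 and 5 were not. Arntl was called as a rise with a log2 fold change of 2.11 ± 0.63, adjusted p = 0.0344, and its call ended without PNx 2, 3 or 4 or any Sham library (adjusted p 0.0525 to 0.0809). Npas2 was at 7.54, 7.57, 1.58, 5.18 and 2.1 CPM and 0.851, 2.24, 1.11, 1.01 and 0.586 CPM. Npas2 had a log2 fold change of 2.06 ± 0.58, adjusted p = 0.029, and its call ended without PNx 4 or Sham 1, 3, 4 or 5 (adjusted p 0.0566 to 0.0683). Clock, the other partner of Arntl, was at 29.1, 33.4, 7.76, 10.7 and 9.25 CPM and 27.2, 25.4, 28.1, 33.3 and 24.4 CPM, below all Sham libraries in PNx 3, 4 and 5 and not in PNx 1 and 2 (log2 fold change -0.6 ± 0.36, adjusted p = 0.198). Other members divided the PNx libraries differently. Dbp was at 47, 45.9, 77.8, 89.3 and 179 CPM after PNx and 133, 169, 149, 192 and 167 after sham surgery, with PNx 5 inside the Sham range and PNx 1 and 2 lowest (log2 fold change -0.88 ± 0.36, adjusted p = 0.0752). Ciart, a further repressor, showed the same order at 2.34, 1.28, 5.65, 5.95 and 15.8 CPM against 10.5, 15.5, 15.3, 19.2 and 14.6 CPM (log2 fold change -1.3 ± 0.55, adjusted p = 0.0809). Per1, which also answers to stress hormones, was at 11.7, 14.1, 86.9, 17.6 and 19.9 CPM against 28.3, 19.8, 28.8, 36.7 and 46.7 CPM, far above Sham in PNx 3 and below it in PNx 1, 2 and 4 (log2 fold change -0.1 ± 0.43, adjusted p = 0.882). The order of PNx 1 to 5 was not the same from 1 clock gene to the next.

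**Figure D3:**
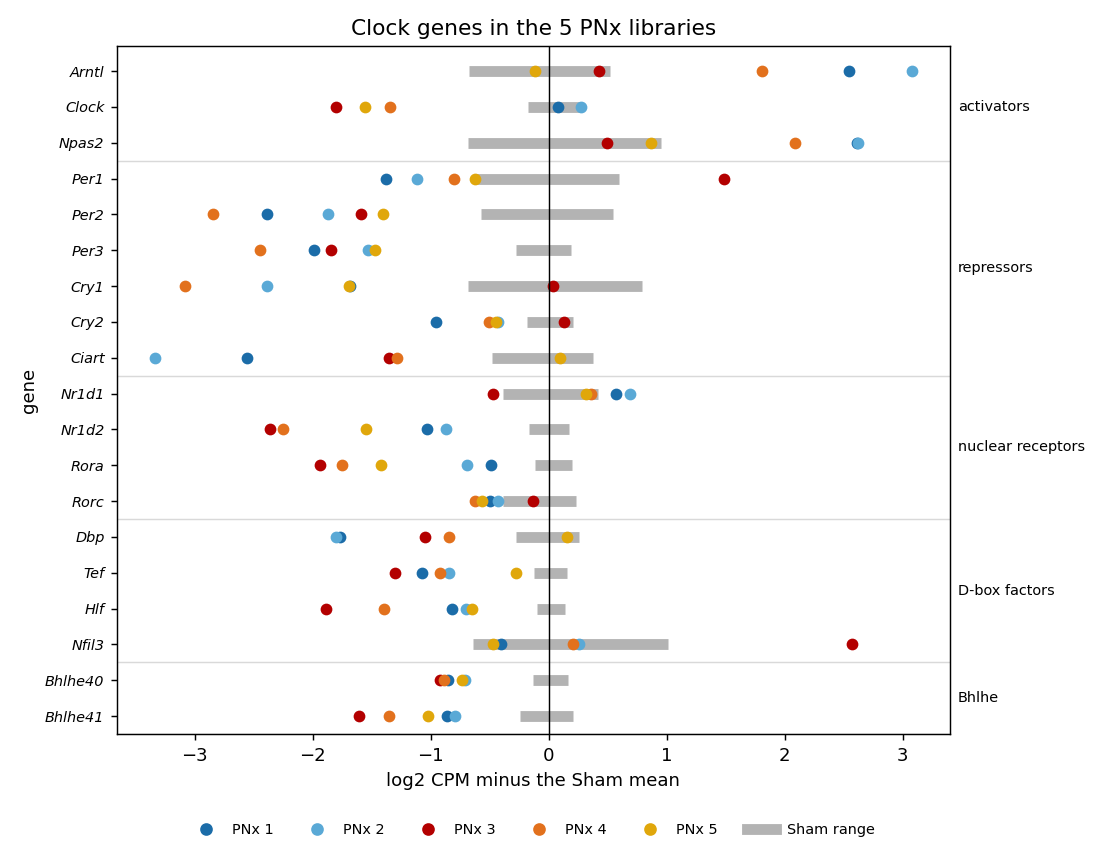
Difference of log2 CPM from the Sham mean for the 19 clock genes (rows, by role) in each of the 5 PNx libraries (coloured points), with the range of the 5 Sham libraries as a grey bar. For Per2, Per3, Nr1d2, Hlf and Bhlhe40 all 5 points lie below the bar, while for Arntl those of PNx 1, 2 and 4 lie above it and those of PNx 3 and 5 on it.

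Clock promoters are known to be driven through E-boxes (searched as CACGTG) by Arntl and its partners and through D-boxes (searched as TTATGNAA) by Dbp, Tef and Hlf. Both motifs were searched on both strands in 16 windows of list members. An E-box was in 5 of them (31.2%) against 9.95% of all windows, and a D-box in 2 (12.5%) against 2.1%. The windows of Per3 and Tef are shown since each holds a single kind of motif, with E-boxes and D-boxes in capitals.
Per3, chr4:151044616-151044915, minus strand: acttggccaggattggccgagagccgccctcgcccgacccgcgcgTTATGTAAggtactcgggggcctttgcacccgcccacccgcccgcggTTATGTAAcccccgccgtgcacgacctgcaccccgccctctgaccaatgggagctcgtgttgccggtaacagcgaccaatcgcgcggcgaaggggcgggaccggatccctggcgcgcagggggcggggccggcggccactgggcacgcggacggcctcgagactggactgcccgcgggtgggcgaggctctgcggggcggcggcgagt
Tef, chr15:81802423-81802722, plus strand: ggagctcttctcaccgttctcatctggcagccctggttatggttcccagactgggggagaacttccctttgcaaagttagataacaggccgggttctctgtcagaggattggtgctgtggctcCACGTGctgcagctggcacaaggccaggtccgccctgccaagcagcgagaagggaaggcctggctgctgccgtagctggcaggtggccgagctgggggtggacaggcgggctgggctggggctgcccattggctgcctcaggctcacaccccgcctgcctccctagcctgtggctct
The windows of Nr1d2 and Hlf held neither motif. Their log2 fold changes, -1.49 and -1.02, lay between those of Per3 (-1.84) and Tef (-0.84).

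The same surgery groups were sequenced in heart and visceral adipose tissue (VFAT), and a fit over the 3 tissues tested whether the PNx effect on a gene differed from that in kidney. Libraries of different tissues were treated as independent, so that any sharing of animals between tissues is not in the errors or p-values. In heart no clock gene was called after PNx by edgeR, with 0 at an unadjusted p under 0.05, where 1.09% of all genes were called. The effect was lower in kidney for 2 of the 19, where 12% of all genes differed between kidney and heart. Nr1d2 differed by -1.59 ± 0.47 on the log2 scale (edgeR adjusted p = 0.0265) and Bhlhe40 by -1.19 ± 0.41 (adjusted p = 0.0444). In VFAT 2 clock genes rose (Cry2 and Nr1d1) and 2 fell (Bhlhe40 and Bhlhe41), where 19.5% of all genes changed. The log2 fold change of Cry2 was 0.58 ± 0.21 in VFAT (edgeR adjusted p = 0.0388) and -0.41 in kidney, where it was not called. The effect was lower in kidney than in VFAT for 4 of the 19, where 11.7% of all genes differed. These were Per2 (-2.33 ± 0.77, adjusted p = 0.0367), Per3 (-2.23 ± 0.61, adjusted p = 0.01), Cry2 (-1.06 ± 0.3, adjusted p = 0.0126) and Nr1d2 (-1.5 ± 0.47, adjusted p = 0.028). For the other 17 and 15 genes a difference between the tissues was not detected. Leaving out 1 kidney library at a time, the VFAT differences of Per3 and Cry2 were called in all 10 fits. That of Per2 ended without PNx 3 or 4 or Sham 5 (highest adjusted p = 0.071), and that of Nr1d2 without PNx 3 or 4 (0.072). The heart difference of Nr1d2 ended without PNx 3, 4 or 5 (highest adjusted p = 0.0796), and that of Bhlhe40 without PNx 3, 4 or 5 or any Sham library (0.1).

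Genes of detoxifying enzymes rose in part. NRF2, the factor that answers oxidants and electrophiles, and related factors are known to drive the glutathione transferases, which couple glutathione to foreign and oxidised molecules. Of the 21 genes listed, 12 rose, none fell and the median log2 fold change was 0.68, with 0.39, 0.37, 0.62, 0.69 and 0.76 in PNx 1 to 5. The number of rises was 3 without Sham 4 and 13 without PNx 1 or 2, 5 with only PNx and Sham in the fit, 3 with the length index and 1 without PNx 3 to 5 and Control Cells 4 and 5. Gsta2 (chr9:78331018-78355788) was at 115, 114, 140.4, 116 and 184 CPM after PNx and 37.9, 23.5, 32.9, 20.7 and 29.8 after sham surgery. Its groups were far apart, 4.61-fold (log2 fold change 2.2 ± 0.32, adjusted p = 0.00101). Gsta1, at 57, 56.6, 62.8, 46.5 and 92.9 CPM and 19.2, 11.6, 16.4, 11.4 and 10.7 CPM, rose by a like amount (log2 fold change 2.18 ± 0.41, adjusted p = 0.00492), and since the sequences of Gsta1 and Gsta2 are nearly identical, the counting may have divided reads between them. Srxn1, sulfiredoxin, which repairs oxidised peroxiredoxins, rose by less and was stable, from 55.5 to 74.9 CPM to 87.4 to 104 CPM (log2 fold change 0.61 ± 0.11, adjusted p = 0.00376). Gstm1 was at 979, 842, 940.4, 1233 and 1203 CPM and 624, 603, 621, 582 and 637 CPM. Gstm1 had a log2 fold change of 0.76 ± 0.18, adjusted p = 0.0173, and its call ended without Sham 4 (adjusted p 0.0502). Nox4, the NADPH oxidase of kidney tubules that makes hydrogen peroxide, fell with no overlap, from 278, 244, 245, 267 and 227 CPM to 114, 124, 41.4, 29 and 57 CPM (log2 fold change -1.78 ± 0.33, adjusted p = 0.00424).

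Other genes of large stable change, named by size alone, fell outside these lists or headed the listings of other tissues. Gc (chr5:89417522-89457898), the vitamin D-binding protein of plasma, was at 36.4, 35.5, 171, 35.7 and 21.3 CPM in PNx 1 to 5 and 4.26, 7.5, 6.65, 6.06 and 6.09 in Sham 1 to 5. All PNx libraries were at least 21.3 and all Sham libraries at most 7.5 (log2 fold change 3.29 ± 0.54, adjusted p = 0.00249). Apoc3, an apolipoprotein of triglyceride-rich particles, was at 6.63, 6.29, 23.8, 21 and 15.6 CPM against 3.31, 3.92, 3.12, 2.86 and 3.16 CPM (log2 fold change 2.15 ± 0.43, adjusted p = 0.00792). Ttr, transthyretin, the carrier of thyroxine and of retinol-binding protein, was at 277, 210.0, 262, 210.4 and 611 CPM against 58.7, 105, 69.8, 75.4 and 141 CPM (log2 fold change 1.8 ± 0.37, adjusted p = 0.00818). Gc, Apoc3 and Ttr are known above all from liver. Of 6 liver genes listed, 2 rose, and their summed level was 418, 374, 664, 454 and 576 CPM in PNx 1 to 5 and 145, 255, 178, 178 and 238 in Sham 1 to 5. Ttr, which was named for its change, is a large part of that sum and most of it in PNx 5. The difference in the sum is therefore not separate from that of Ttr. The median difference of the 6 genes from the Sham mean was 0.68, 0.36, 0.89, 2.02 and 0.48 in PNx 1 to 5 and -0.69 to 1.13 in the Sham libraries, with Sham 2 above PNx 1, 2, 3 and 5. Whether liver RNA was in any sample was not tested. Among the falls, Coq10b, which handles coenzyme Q in mitochondria, was at 25.2, 22.4, 10.9, 10.2 and 22.4 CPM against 57.3, 61.6, 81.1, 85.1 and 82.5 CPM (log2 fold change -2.01 ± 0.33, adjusted p = 0.00249). Lipo2, of the acid lipase family, went from 8.04 to 14.4 CPM to 0.92 to 4.55 CPM (log2 fold change -2.0 ± 0.39, adjusted p = 0.00698), and it has close relatives in the genome that may share its reads. Ak3l2-ps, a pseudogene of adenylate kinase, went from 52 to 65.6 to 4.86 to 27.6 CPM (log2 fold change -1.92 ± 0.36, adjusted p = 0.00571), and its reads may belong to the parent gene.

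**Figure D4:**
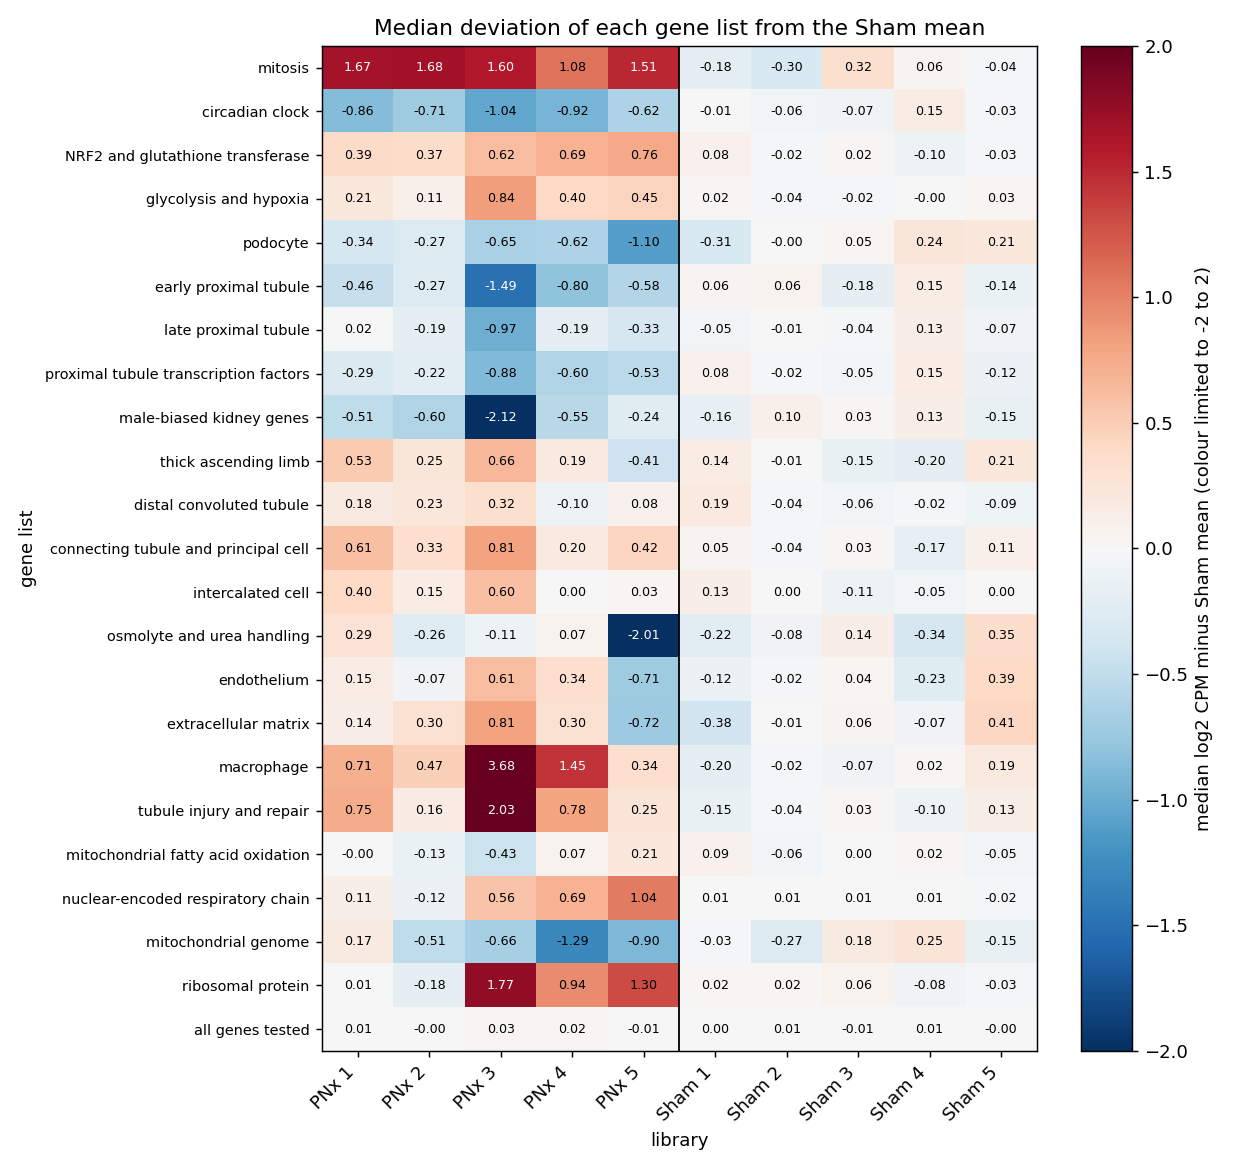
Median log2 difference from the Sham mean of the tested genes of each list (rows) in each of the 10 kidney libraries (columns), printed and as a colour scale. Mitosis and clock genes lie beyond the Sham range on 1 side in all 5 PNx libraries. So do those of NRF2, glycolysis, early proximal tubule, proximal tubule transcription factors, male bias, connecting tubule, macrophage and tubule injury. Ribosomal protein and respiratory chain genes are far higher in PNx 3, 4 and 5 than in the other libraries, and macrophage genes are highest in PNx 3.

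In the proximal tubule, uptake genes fell in part. Of 12 genes of its early segments 4 fell and none rose, with a median log2 fold change of -0.61, and of 13 late ones 3 fell and 1 rose (-0.16). The median differences from Sham in PNx 1 to 5 were -0.46, -0.27, -1.49, -0.8 and -0.58 for the early genes and 0.015, -0.19, -0.97, -0.19 and -0.33 for the late ones, so that PNx 3 was lowest in both. The number of early genes that fell was 1 without PNx 3, 4 or 5 or any Sham library and 7 without PNx 1 or 2, and of late ones 1 without Sham 4 and 3 without PNx 1 or 2. Slc5a12 (chr2:110597298-110647779), the lactate transporter of the brush border, was at 109.7, 128, 38.1, 27.8 and 29.9 CPM after PNx and 370.1, 348, 267, 420.2 and 251 after sham surgery. Even its highest PNx library, PNx 2, was under the lowest Sham library (log2 fold change -2.31 ± 0.46, adjusted p = 0.00754). Slc7a13, an aspartate and glutamate carrier of the straight segment, was at 429, 390.2, 89.5, 366 and 352 CPM and 686, 715, 763, 770.0 and 608 CPM and fell, and was stable (log2 fold change -1.12 ± 0.25, adjusted p = 0.0135). Slc27a2, which brings very long fatty acids to coenzyme A, fell with no overlap, from 2881 to 3359.8 to 917 to 2174 CPM. Slc27a2 had a log2 fold change of -0.79 ± 0.19, adjusted p = 0.0171, and its call ended without Sham 4 (adjusted p 0.0511). By contrast Slc34a1 was inside the Sham range in PNx 5 and near it in PNx 4 (log2 fold change -0.43 ± 0.24, adjusted p = 0.168), and the uptake receptor Lrp2, megalin, was at 1063, 1174, 401, 715 and 844 CPM against 1428, 1260.4, 1190.5, 1455 and 1209 CPM (log2 fold change -0.64 ± 0.24, adjusted p = 0.0601).

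Of 22 transporters of organic ions and drugs, 6 fell and none rose (-0.36), none of them stable, and the number was 0 without PNx 3 or 4 or Sham 4 and 7 without PNx 1 or 2. Slco1a1, which takes up organic anions, was at 277, 261, 40.2, 135 and 222 CPM and 319.6, 526, 441, 489 and 331 CPM. Slco1a1 had a log2 fold change of -1.17 ± 0.33, adjusted p = 0.0298, and its call ended without PNx 3 or 4 or Sham 2, 3 or 4 (adjusted p 0.0576 to 0.0741). Of 20 tested amino acid and peptide transporters of 21 listed, 7 fell and 2 rose. The number of falls was 1 without PNx 3 or Sham 2 or 4 and 8 without PNx 2. Slc38a3, the glutamine transporter that feeds ammonia production, was at 236, 258, 178, 252 and 241 CPM after PNx and 123, 103, 109, 99.1 and 118 after sham surgery. It rose 2.11-fold with no overlap and was stable (log2 fold change 1.08 ± 0.22, adjusted p = 0.00792). Slc6a19, the apical carrier of neutral amino acids, went the other way, at 186, 200.4, 101, 222 and 223 CPM against 399.9, 438, 322, 466 and 323 CPM. Slc6a19 had a log2 fold change of -1.06 ± 0.28, adjusted p = 0.0224, and its call ended without PNx 3 or Sham 2 or 4 (adjusted p 0.0518 to 0.0809). Its neighbour in function Slc6a18 stayed within 468 to 591 CPM against 512 to 591 CPM (log2 fold change 0.035 ± 0.12, adjusted p = 0.841).

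Of 11 transcription factors of the proximal tubule 5 fell and none rose (-0.53), none of them stable, and the number was 0 without PNx 3 or 4 or Sham 1, 2 or 4 and 7 without PNx 1 or 2. Hnf4a, which sets up the program of the segment, was at 556, 596, 450.2, 576 and 676 CPM and 813, 832, 766, 913 and 738 CPM, below all Sham libraries in every PNx library. Hnf4a had a log2 fold change of -0.51 ± 0.15, adjusted p = 0.0305, and its call ended without PNx 3 or 4 or Sham 1, 2, 3 or 4 (adjusted p 0.0547 to 0.0996). Ppara, the receptor that drives fat burning, was at 22.1, 29.2, 9.86, 4.27 and 4.76 CPM and 41.3, 39.6, 30.6, 48.3 and 37.5 CPM. Ppara had a log2 fold change of -1.47 ± 0.41, adjusted p = 0.0283, and its call ended without PNx 3, 4 or 5 or Sham 1, 2 or 4 (adjusted p 0.0535 to 0.104). Of 12 genes known to be higher in male mouse kidney, 3 fell and none rose (-0.67), with -0.51, -0.6, -2.12, -0.55 and -0.24 in PNx 1 to 5, so that PNx 3 was again lowest, and the number of falls was 1 without PNx 3 or 4 or Sham 2, 3 or 4 and 6 without PNx 1 or 2. Cyp4a12a, an androgen-driven hydroxylase, was at 427, 473, 93.2, 283 and 334 CPM and 679.6, 827, 682, 726 and 566 CPM. Cyp4a12a had a log2 fold change of -1.11 ± 0.34, adjusted p = 0.0362, and its call ended without PNx 3, 4 or 5 or Sham 1, 2, 3 or 4 (adjusted p 0.0641 to 0.108), and it shares sequence with other Cyp4a genes. Kap, the androgen-regulated kidney protein, was at 4883, 2787, 3272, 5708 and 7445 CPM and 3853, 4729, 5012, 5608 and 4645 CPM with overlapping groups (log2 fold change 0.015 ± 0.36, adjusted p = 0.981).

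Downstream of the proximal tubule the median log2 fold changes lay above that of all genes, but the PNx libraries differed. Median differences from Sham in PNx 1 to 5 were 0.53, 0.25, 0.66, 0.19 and -0.41 in the thick ascending limb (Sham -0.2 to 0.21). They were 0.4, 0.15, 0.6, 0.0048 and 0.033 in the intercalated cell (-0.11 to 0.13). In the distal convoluted tubule they were 0.18, 0.23, 0.32, -0.0975 and 0.081 (-0.091 to 0.19). Only in the connecting tubule and principal cell, at 0.61, 0.33, 0.81, 0.2 and 0.42, were all above Sham (-0.165 to 0.11). In the thick ascending limb 5 of 13 tested genes of 14 rose and none fell (0.34), and in the connecting tubule and principal cell 6 of 14 of 15 (0.58). Of 17 intercalated cell genes 5 rose (0.22), and of 12 distal convoluted tubule genes 1 rose and 1 fell (0.17). Single libraries decided these numbers. The number of rises was 0 without PNx 3 or Sham 2, 3 or 4 and 6 without PNx 2 in the thick ascending limb, 0 without PNx 3 and 6 without PNx 2 in the intercalated cell, and 1 without PNx 3 or Sham 1, 3 or 4 and 7 without PNx 2 in the connecting tubule and principal cell. The stable rise among these 4 lists was that of Hsd11b2, the enzyme that inactivates cortisol and corticosterone and so keeps the mineralocorticoid receptor for aldosterone. It was at 239, 210.1, 352, 236 and 255 CPM after PNx and 173, 173, 151, 152 and 186 after sham surgery (log2 fold change 0.63 ± 0.14, adjusted p = 0.0113). Foxi1, the master factor of intercalated cells, was at 37.7, 34, 72.6, 34.9 and 45.3 CPM and 24.6, 24.2, 25.9, 23.7 and 30.5 CPM without overlap. Foxi1 had a log2 fold change of 0.8 ± 0.18, adjusted p = 0.0141, and its call ended without PNx 3 (adjusted p 0.0614). Scnn1b, a subunit of the epithelial sodium channel, was at 64.4, 62.3, 128, 54.9 and 75.3 CPM against 47.1, 49.5, 43.7, 42.9 and 45.5 CPM, again without overlap. Scnn1b had a log2 fold change of 0.75 ± 0.20, adjusted p = 0.0259, and its call ended without PNx 3 or Sham 1, 3 or 4 (adjusted p 0.0516 to 0.122). Aqp2, the water channel moved by vasopressin, was at 795, 416, 1892, 908 and 680.0 CPM and 304, 357, 496, 271 and 590.3 CPM and overlapped. Aqp2 had a log2 fold change of 1.22 ± 0.42, adjusted p = 0.0499, and its call ended without PNx 3, 4 or 5 or any Sham library (adjusted p 0.0584 to 0.222).

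Slc12a1, the sodium-potassium-chloride cotransporter of the thick ascending limb, divided the PNx libraries. It was at 1196, 800.0, 299, 346 and 147 CPM in PNx 1 to 5 and 862, 710.4, 613, 618 and 921 in Sham 1 to 5, within or above the Sham range in PNx 1 and 2 and below all Sham libraries in PNx 3, 4 and 5 (log2 fold change -0.42 ± 0.44, adjusted p = 0.476). Slc12a3, the sodium-chloride cotransporter of the distal convoluted tubule, was at 377, 491, 636, 269 and 435 CPM against 425, 345, 299, 324 and 292 CPM (log2 fold change 0.39 ± 0.22, adjusted p = 0.174). Among 8 genes of osmolyte and urea handling, which are high in the salty inner medulla, 1 fell. Their median difference from Sham was 0.29, -0.26, -0.11, 0.07 and -2.01 in PNx 1 to 5, so that PNx 5 was far below the others. Aqp4, the basolateral water channel of the collecting duct, was at 55.5, 17.1, 7.23, 9.06 and 1.82 CPM after PNx and 42.7, 34.6, 72.7, 34.2 and 37 after sham surgery, lowest in PNx 5 (log2 fold change -1.29 ± 0.65, adjusted p = 0.131). The amount of medulla in each piece of kidney was not measured, and its part in these values was not tested.

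**Figure D5:**
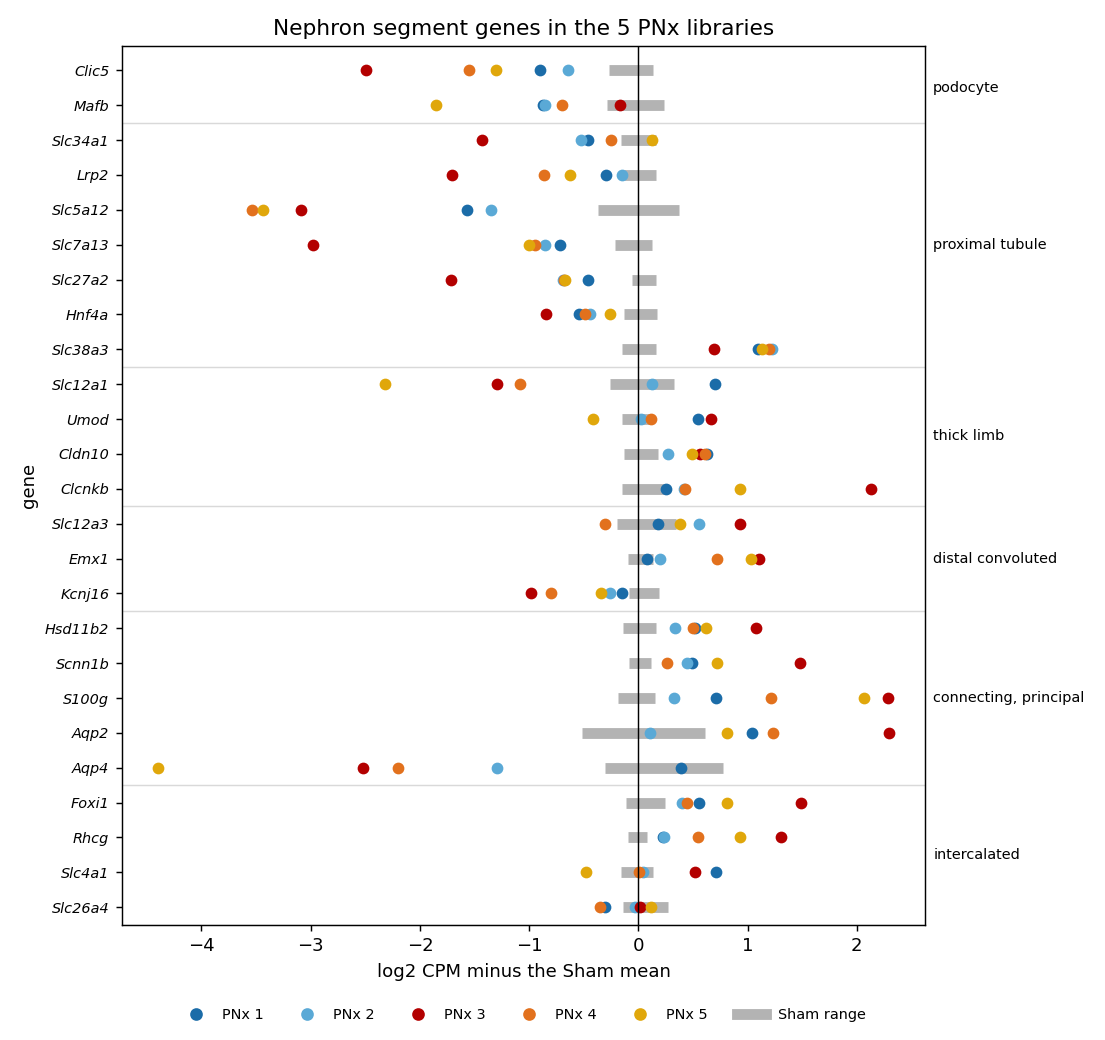
Difference of log2 CPM from the Sham mean for genes of nephron segments (rows) in each of the 5 PNx libraries (coloured points), with the range of the 5 Sham libraries as a grey bar. For Slc5a12 all 5 points lie below the bar and for Slc38a3 all lie above it, while for Slc12a1 those of PNx 3, 4 and 5 alone lie below it.

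In the glomerulus 3 of 14 podocyte genes fell and none rose (-0.52), and the number was 1 without PNx 4 or 5 or any Sham library and 6 without PNx 1 or 2. Clic5, a chloride channel-like protein of podocyte foot processes that is also made in other cells, was at 78.3, 93.3, 25.8, 49.7 and 59 CPM and 152, 160.4, 149, 151 and 122 CPM and fell, and was stable (log2 fold change -1.26 ± 0.26, adjusted p = 0.00831). Of 15 endothelial genes 2 fell, and PNx 5 had the lowest median, at 0.15, -0.075, 0.61, 0.34 and -0.71 in PNx 1 to 5. Ehd3, which is high in glomerular endothelium, was at 18.6, 20.9, 21.7, 19.5 and 12.8 CPM and 19.5, 27.2, 29.9, 26.6 and 40.8 CPM. Ehd3 had a log2 fold change of -0.62 ± 0.16, adjusted p = 0.0216, and its call ended without Sham 5 (adjusted p 0.056). Of 13 genes of pericytes, smooth muscle and renin cells 2 rose, and of 25 matrix genes 1 rose. Acta2, smooth muscle actin, was at 25.2, 34.1, 86.2, 27.2 and 32.8 CPM and 18, 14.8, 24.5, 20.4 and 21.8 CPM without overlap. Acta2 had a log2 fold change of 1.05 ± 0.29, adjusted p = 0.0269, and its call ended without PNx 3 or Sham 1, 2 or 4 (adjusted p 0.0592 to 0.146). Col1a1, of fibrillar collagen, was at 15.6, 28.8, 50.5, 31.8 and 10.1 CPM against 8.7, 13.7, 12.5, 9.25 and 15 CPM, above the Sham range in PNx 1 to 4 and within it in PNx 5 (log2 fold change 1.21 ± 0.45, adjusted p = 0.0589). Of 17 tested genes of TGF-beta and BMP signalling 1 fell and none rose.

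Metabolic genes of the proximal tubule fell in small numbers, where 7.56% of all genes fell and 9.25% rose. Of 20 genes of mitochondrial fatty acid oxidation 2 fell and none rose, with a median of -0.02. Cpt1a, the gate for fatty acids into mitochondria, was at 399.6, 448, 192, 228 and 276 CPM after PNx and 578, 537, 477, 624 and 553 after sham surgery, below all Sham libraries in each. Cpt1a had a log2 fold change of -0.84 ± 0.22, adjusted p = 0.0229, and its call ended without PNx 3, 4 or 5 or Sham 4 (adjusted p 0.0516 to 0.0893). Of 17 peroxisomal genes 2 fell (-0.23), of 11 of gluconeogenesis and fructose use 1 fell (-0.11), and of 20 of the citrate cycle 1 fell (-0.16), with no rise in any. Pck1, which sets the rate of glucose making, was at 2825, 2623, 838, 1487 and 2399.6 CPM against 2352, 1625, 1934, 2439 and 2598 CPM and overlapped (log2 fold change -0.11 ± 0.27, adjusted p = 0.783). Of 29 genes of amino acid breakdown 3 fell and 2 rose, and the number of falls was 1 without PNx 3, 4 or 5 or Sham 1, 2, 3 or 4 and 5 without PNx 1. No gene passed edgeR's test among 13 of fatty acid and triglyceride synthesis (2 at an unadjusted p under 0.05, 2 called by DESeq2 and 3 by limma voom), and of 20 of cholesterol synthesis 1 rose and 2 fell.

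In glycolysis and the hypoxia response 7 of 20 genes rose and none fell (0.34), and the number was 0 without Sham 4 and 9 without PNx 1 or 2. Ndrg1, which rises in low oxygen, was at 2315, 2086, 1046, 1849 and 1481 CPM and 1193, 760.0, 786, 867 and 792 CPM. Ndrg1 had a log2 fold change of 1.0 ± 0.25, adjusted p = 0.02, and its call ended without Sham 2 or 4 (adjusted p 0.0519 to 0.0537). It was highest in PNx 1 and 2. Pfkp, a phosphofructokinase, was at 86.4, 72.5, 90.2, 71.4 and 51.7 CPM against 36.5, 39.3, 31.8, 37.9 and 45.7 CPM without overlap. Pfkp had a log2 fold change of 0.96 ± 0.24, adjusted p = 0.0196, and its call ended without PNx 3 or Sham 3 or 4 (adjusted p 0.0507 to 0.0803).

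Among regulators of growth, Egfr, the receptor of epidermal growth factor, was at 35.8, 34.3, 19.2, 26.8 and 28.4 CPM after PNx and 44.6, 52.5, 47.7, 43.9 and 43.5 after sham surgery and fell, and was stable (log2 fold change -0.68 ± 0.15, adjusted p = 0.0134). Of the 16 tested growth factors and receptors of 20, 4 fell and 2 rose (-0.35). The number of falls was 1 without PNx 3, 4 or 5 or Sham 1, 2 or 4 and 6 without PNx 2, that of rises 0 without PNx 3, 4 or 5 or any Sham library and 2 without PNx 1 or 2, and the median was 0.04 with the length index in the fit and 0.025 without PNx 3 to 5 and Control Cells 4 and 5. Igf1r, the receptor of insulin-like growth factor, was at 104, 124, 56.1, 83.6 and 85.3 CPM and 179, 159, 137, 171 and 144 CPM. Igf1r had a log2 fold change of -0.8 ± 0.22, adjusted p = 0.0283, and its call ended without PNx 3, 4 or 5 or Sham 1, 2 or 4 (adjusted p 0.0558 to 0.11). In the renin-angiotensin-aldosterone list 2 of 12 rose and 2 fell, and the number of falls was 1 without PNx 3, 4 or 5 or any Sham library and 6 without PNx 2. Ren1, renin, was at 59.6, 81.2, 366, 77.8 and 81.3 CPM and 97.8, 77.8, 88.3, 106 and 147 CPM, high in PNx 3 alone (log2 fold change 0.36 ± 0.35, adjusted p = 0.431). In vitamin D, phosphate and calcium handling 3 of 13 rose and none fell. Cyp27b1, which makes active vitamin D, was at 8.06, 10.5, 22.5, 7.38 and 24.7 CPM and 7.09, 5.6, 6.37, 4.54 and 4.92 CPM, above the Sham range in every PNx library. Cyp27b1 had a log2 fold change of 1.34 ± 0.38, adjusted p = 0.0283, and its call ended without PNx 3 or 5 or Sham 2, 3, 4 or 5 (adjusted p 0.0546 to 0.116). Kl, klotho, the partner of the FGF23 receptor, was at 484, 559.7, 169, 275 and 336 CPM and 621, 646, 553, 676 and 486 CPM, below the Sham range in PNx 3, 4 and 5 and just under its low end in PNx 1 (log2 fold change -0.71 ± 0.27, adjusted p = 0.0644). In iron handling 3 of 9 tested genes fell and none rose, and Tfrc, the transferrin receptor, was at 40.2, 37, 10.6, 23.3 and 25.8 CPM and 71.6, 71.8, 76.7, 62.6 and 44.9 CPM with a stable fall (log2 fold change -1.25 ± 0.30, adjusted p = 0.0168).

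Injury genes rose in part. Of 20 tested genes of tubule injury and repair of 21 listed, 7 rose and none fell (1.22), with medians of 0.75, 0.16, 2.03, 0.78 and 0.25 in PNx 1 to 5. The number of rises was 3 without PNx 3 and 12 without PNx 2. It was 1 with the length index, 0 of 18 with only PNx and Sham in the fit, and 1 without PNx 3 to 5 and Control Cells 4 and 5. Clu, clusterin, a secreted chaperone of damaged tubules, was at 268, 276, 941, 309.7 and 546 CPM and 157, 158, 158, 152 and 177 CPM (log2 fold change 1.55 ± 0.27, adjusted p = 0.00353). Krt7, a keratin of ducts and of damaged tubules, was at 155, 131, 525, 205 and 247 CPM and 97.3, 95.3, 99.8, 81.4 and 109 CPM (log2 fold change 1.39 ± 0.28, adjusted p = 0.00818). Lgals3, galectin-3, made by tubules and macrophages, was at 51.9, 40.3, 255, 69 and 76.7 CPM and 28.3, 30.6, 26.3, 25.6 and 28.1 CPM (log2 fold change 1.83 ± 0.39, adjusted p = 0.0112). These 3 were stable, did not overlap and were all highest in PNx 3. Of them only Clu was also called both with the length index and without PNx 3 to 5 and Control Cells 4 and 5. Lcn2, the injury marker NGAL, which neutrophils also hold, was at 15.7, 6.77, 1137, 22.9 and 8.41 CPM after PNx and 2.84, 1.9, 2.91, 2.69 and 5.62 after sham surgery (log2 fold change 6.22 ± 1.41, adjusted p = 0.0141). All PNx libraries were above all Sham libraries, but PNx 3 was far above the rest and the call ended without PNx 3 (adjusted p 0.171). Havcr1, the injury marker KIM-1, was at 22.9, 18, 29.3, 14.8 and 12.6 CPM against 18.8, 23.3, 22.4, 28.8 and 28.9 CPM (log2 fold change -0.32 ± 0.27, adjusted p = 0.352), in overlapping groups.

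Neutrophil and macrophage genes were highest in PNx 3. The 11 neutrophil genes summed to 3.06, 5.14, 3785, 24.6 and 8.56 CPM in PNx 1 to 5 and 2.19, 2.41, 2.55, 1.46 and 1.95 in Sham 1 to 5. S100a9, of the calprotectin of neutrophils, was at 1.95, 2.29, 1636, 11.3 and 4.62 CPM and 1.04, 1.12, 1.39, 0.505 and 0.351 CPM. S100a9 had a log2 fold change of 8.45 ± 1.81, adjusted p = 0.0112, and its call ended without PNx 3 (adjusted p 0.164). Of 14 macrophage genes 9 rose and none fell (2.07), and the number was 0 without PNx 3 and 9 without PNx 1, 2 or 5. Their median differences from Sham in PNx 1 to 5 were 0.71, 0.47, 3.68, 1.45 and 0.34. Lyz2, lysozyme of macrophages, was at 102, 58.4, 833, 109 and 33.8 CPM and 20.5, 25.8, 24.2, 31 and 30.8 CPM, higher than Sham in every PNx library though least in PNx 5. Lyz2 had a log2 fold change of 3.1 ± 0.72, adjusted p = 0.0151, and its call ended without PNx 3 (adjusted p 0.113), and its relative Lyz1 may share reads with it. C3, the central complement protein, which tubules also make, was at 67.8, 73.4, 516, 75.1 and 65.9 CPM and 23.5, 21.8, 23.6, 34.7 and 28 CPM. C3 had a log2 fold change of 2.6 ± 0.61, adjusted p = 0.0162, and its call ended without PNx 3 (adjusted p 0.105). Of 13 tested chemokines and cytokines 4 rose, of 16 interferon-stimulated genes 3 and of 12 complement genes 1, with no fall in any.

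Stress responses were mixed. Of 12 genes known to answer glucocorticoids 3 rose and 2 fell, and of 15 tested immediate early genes 3 rose and 1 fell. Dusp1, a phosphatase that turns off MAP kinases and that is on both lists, was at 25.9, 24.3, 24.5, 19 and 21.6 CPM and 41.3, 38.6, 32.4, 37.2 and 52.2 CPM, and its fall was stable (log2 fold change -0.81 ± 0.20, adjusted p = 0.019). Cebpd, another factor induced by glucocorticoids and cytokines, was at 3.51, 4, 84.5, 5.18 and 7.99 CPM and 3.59, 3.36, 4.02, 3.53 and 4.69 CPM, near Sham in PNx 1 and 2 and high in PNx 3. Cebpd had a log2 fold change of 2.44 ± 0.65, adjusted p = 0.0245, and its call ended without PNx 3 or Sham 1, 2, 3 or 4 (adjusted p 0.0533 to 0.396). Of 14 genes of endoplasmic reticulum stress 1 rose and 2 fell, and of 12 heat shock genes 2 fell. Herpud1, which clears misfolded proteins, was at 177, 178, 200.1, 189 and 248 CPM and 290.5, 280.3, 278, 321 and 299 CPM without overlap. Herpud1 had a log2 fold change of -0.57 ± 0.14, adjusted p = 0.0196, and its call ended without Sham 4 (adjusted p 0.0544). Hspa8, the constitutive heat shock protein, was at 1226, 1213, 1895, 1850.1 and 3314 CPM and 2276, 2345, 2283, 2299 and 2216 CPM, below all Sham libraries in PNx 1 to 4, lowest in PNx 1 and 2, and above them in PNx 5 (log2 fold change -0.27 ± 0.22, adjusted p = 0.343). Of 16 cell death genes 4 rose and 1 fell. The number of rises was 0 without PNx 3 or 4 or Sham 1, 2, 3 or 4 and 4 without PNx 1 or 2, and that of falls 0 without PNx 3, 4 or 5 or Sham 1, 2, 3 or 4 and 4 without PNx 1 or 2.

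Ribosomal protein and respiratory chain genes were far above Sham in PNx 3, 4 and 5 and near it in PNx 1 and 2. The 22 ribosomal protein genes had median differences from Sham of 0.0093, -0.18, 1.77, 0.94 and 1.3 in PNx 1 to 5, and -0.076 to 0.064 in the Sham libraries. None was called by edgeR, with 19 at an unadjusted p under 0.05, 6 called by DESeq2 and 21 by limma voom, and with a median log2 fold change of 0.96, which was -0.13 with the length index in the fit. The number of rises was 14 without PNx 1, 20 without PNx 2 and 0 without any other library. Rpl4 was at 556, 455, 974, 708 and 822 CPM after PNx and 561, 557, 564, 545 and 541 after sham surgery (log2 fold change 0.34 ± 0.17, adjusted p = 0.129), and ribosomal protein genes have many pseudogenes that may share reads. The 27 nuclear genes of the respiratory chain had medians of 0.11, -0.12, 0.56, 0.69 and 1.04 in PNx 1 to 5. The Sham medians were -0.0195 to 0.00994, so that PNx 1 was slightly above them. In the fit of all libraries edgeR made no call (15 at an unadjusted p under 0.05, 3 called by DESeq2 and 21 by limma voom). There were 9 rises and 1 fall without PNx 1, 12 rises without PNx 2, and a median of 0.5, or -0.072 with the length index. The 13 genes of the mitochondrial genome went the other way in most libraries, at 0.17, -0.51, -0.66, -1.29 and -0.9, with no call (-0.54), 5 at an unadjusted p under 0.05, 2 called by DESeq2 and 9 by limma voom, and with 8 falls without PNx 1, 2 without PNx 2 and 0 without any other library. Both nuclear lists hold short genes, with median exon lengths of 1901 and 2147 bases, where that of the tested genes was 3733 bases. The mitochondrial genome list, whose medians were below Sham in PNx 3, 4 and 5, holds shorter genes still, with a median of 784 bases. Across 16299 genes the deviation from Sham had a correlation with log2 length of -0.348, -0.425 and -0.449 in PNx 3, 4 and 5 and of -0.0144 and 0.0614 in PNx 1 and 2, as a description across genes, which are not independent. Sacm1l, a phosphoinositide phosphatase of the endoplasmic reticulum, was at 27.7, 26.7, 4.6, 3.24 and 1.26 CPM after PNx and 35.7, 38.2, 30.9, 35.7 and 39.1 after sham surgery, a difference of the kind that separated these libraries. Sacm1l had a log2 fold change of -1.47 ± 0.51, adjusted p = 0.0487, and its call ended without PNx 3, 4 or 5 or any Sham library (adjusted p 0.0762 to 0.163). Itgb8, an integrin that frees TGF-beta, was at 43.8, 46.8, 6.31, 4.27 and 5.47 CPM and 69.9, 71.7, 82.1, 86.1 and 58.3 CPM. Itgb8 had a log2 fold change of -1.77 ± 0.53, adjusted p = 0.0351, and its call ended without PNx 3, 4 or 5 or any Sham library (adjusted p 0.0503 to 0.122). The Sham values of both were close together, and PNx 1 and 2 lay between them and PNx 3 to 5 or at their edge.

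Markers of other tissues differed, some of them between single libraries. The red blood cell genes summed to 1470.0, 1974, 16580.0, 5521 and 4846 CPM in PNx 1 to 5 and 2653, 3273, 3091, 1772 and 3210.0 in Sham 1 to 5, highest in PNx 3. Their median difference from the Sham mean was -0.938, -0.625, 2.64, 1.02 and 0.989 in PNx 1 to 5 and -0.554 to 0.219 in Sham. PNx 3, 4 and 5 were thus above all Sham libraries and PNx 1 and 2 below them. None of these 5 genes was called by edgeR, with 2 at an unadjusted p under 0.05 and 1 called by DESeq2. Adipocyte genes summed to 72.5, 59, 265, 90.5 and 73.8 and 37.8, 49.4, 110.3, 39.1 and 71.7 CPM, high in PNx 3 and Sham 3, and skeletal muscle genes to 2.39, 2.9, 17.8, 4.27 and 5.11 and 1.14, 0.803, 55.5, 2.27 and 1.83 CPM, high in Sham 3. Urothelial genes summed to 17.9, 0.946, 29.6, 2.59 and 8.91 and 1.52, 7, 5.79, 1.95 and 5.12 CPM. Of the 6 adrenal cortex genes 2 had no count in any library, and the sum was 0.906 to 3.07 CPM in PNx and 1.65 to 2.92 in Sham. Pancreas acinar genes summed to 68.5 to 176 CPM in PNx and 65.8 to 83 in Sham. The median difference from the Sham mean of the 4 tested was 0.595, 1.76, 1.52, 1.67 and 1.43 in PNx 1 to 5. It was -0.0475 to 0 in the Sham libraries, so that every PNx library was above them. None of the 4 was called by edgeR, with 3 at an unadjusted p under 0.05. The part of these cells in the results was not tested.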

How the data were processed

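Bulk RNA from flash-frozen kidney was extracted with a Qiagen RNeasy Plus Universal kit and sequenced as paired reads on an Illumina instrument, per the labels' protocols. The authors deposited raw counts per gene for 54232 Ensembl genes. Trimmomatic 0.38, HISAT2 2.1.0 and DESeq2 1.20.0 and 1.20.1 and the build GRCm38 are named without their roles, per the submitters' processing notes. How reads were counted, with or without strand, and with which annotation release is not stated there. Reads of genes with near-identical copies, of overlapping genes and of antisense genes may therefore have been counted for either. The counts of the additional Sham 3 library (r = 0.973 with the first and 0.977 to 0.980 with the other 4 Sham samples) were added to Sham 3, the number in its label. The fit was edgeR 4.0.16 in R 4.3.3 (filterByExpr, trimmed mean of M-values, quasi-likelihood test, 2-sided) over all 5 kidney groups (25 samples, 1241590 to 16912788 counts), with Benjamini-Hochberg adjustment over 16307 genes. CPM used the same scaling (the summed levels of a list are CPM without it), and log2 CPM a prior count of 2. The standard error is the size of the log2 fold change divided by the square root of F. DESeq2 1.42.0, limma 3.58.1 and other settings were alternatives. Totals of 6157325 to 16912788 counts in the 10 samples limit the precision of genes of a few CPM, and n = 5 that of every comparison. Symbols and coordinates were taken from GENCODE M21 (GRCm38), which held 54165 of the 54232 genes, and promoters from RefSeq (GRCm38.p6). The test was tested on simulated data.

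The comparison, the 49 gene lists, the 7 lists of other tissues and the rule for named genes were chosen with earlier results of these data known. Named were the 8 largest rises and 8 largest falls among called genes of mean log2 CPM of 2 or more, the same among stable genes, up to 4 called members of each list and its most abundant member, all clock genes, the 10 genes of largest spread among the PNx libraries, and segment and injury genes named in advance. The text uses a part of them, and some are not reported here. Replicate numbers were given by the labels in both groups, but same-numbered samples did not deviate together, so that no pairing was used.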

Additional observations from a re-analysis of the deposited data

Results flagged for a closer look

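Within each group of 5 libraries, 89 named genes and 3 library measures were examined for a library far from the other 4 (a gap to the nearest over 0.71 of the range), on the log2 scale for genes. There were 19 such cases in 184 examinations, and chance gives about 1 in 20 among independent groups. The genes are not independent, and some were named for their spread or change in these libraries, so that this rate does not apply to them. PNx 3 was that library in 12 of them. It was highest for Acta2 (86.2 CPM), C3 (515.6), Cebpd (84.5), Gc (170.8), Lcn2 (1136.9), Per1 (86.9), Ren1 (366.2) and S100a9 (1636.1). It was lowest for Slc27a2 (916.5 CPM), Slc38a3 (178.0), Slc6a19 (101.2) and Slc7a13 (89.5). PNx 5 was far above the other PNx libraries for Cdk1 (6.31 CPM) and Ttr (610.7). PNx 2 held the most counts of its group (16912788). Among the Sham libraries, Sham 2 was low for Birc5 (0.56 CPM), Sham 5 was low for Clic5 (121.6) and high for Clu (177.1), and Sham 4 was high for Slc27a2 (3359.8).

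The PNx effect differed between tissues for 5 clock genes by a test of the difference itself, edgeR's interaction contrast. Kidney minus VFAT was -2.33 for Per2, -2.23 for Per3, -1.06 for Cry2 and -1.5 for Nr1d2 on the log2 scale, and kidney minus heart was -1.59 for Nr1d2 and -1.19 for Bhlhe40. Of all genes, 11.7% differed between kidney and VFAT and 12% between kidney and heart. Leaving out 1 kidney library at a time, only the VFAT differences of Per3 and Cry2 were called in all 10 fits. Cry2 rose in VFAT (log2 fold change 0.58) and was not called in kidney (-0.41). The hour of collection of each tissue was not given and its part was not tested.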

How the results depend on the processing

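The number of genes called, 2742 with 1509 rises and 1233 falls, stayed within 1.5 times under DESeq2's size factors (2689) and without the additional Sham 3 library (2969). It was 4486 with DESeq2 (2237 rises and 2249 falls), 7232 with limma voom and quality weights (3625 and 3607), 4283 with the additional Sham 3 library kept as a separate sample (2440 rises), 1007 with no filter on low counts (516 and 491), 571 with the length index as a covariate (263 and 308), 146 with only PNx and Sham in the fit (92 and 54), 2 without PNx 3 to 5 (2 rises and 0 falls by edgeR, with 523 falls at an unadjusted p under 0.05) and 97 without PNx 3 to 5 and Control Cells 4 and 5 (51 and 46). The last of these, and leaving out kidney libraries from the tissue comparison of clock genes, were chosen after seeing the data. Size factors moved the split from 1509 rises and 1233 falls to 1260 and 1429, and the median log2 fold change of all genes from 0.053 to 0.027. Leaving out 1 library gave 307 to 6534 calls, 158 to 3527 rises and 149 to 3007 falls, 0 to 5 clock genes whose effect differed between kidney and heart and 2 to 6 between kidney and VFAT, a length index difference of 0.556 to 0.869 and a mitochondrial share difference of -2.31 to -1.05 percentage points. With narrower length classes the length index differed by 0.893 (2-sided exact permutation p = 0.0952). The cause of these changes was not tested. Of the 89 genes named, 68 were called. Their calls ended for 0 of 66 with an adjusted p in DESeq2, 2 with limma voom, 1 with size factors, 5 with no filter, 41 with only PNx and Sham in the fit, 27 with the length index, 67 without PNx 3 to 5, 47 without Control Cells 4 and 5 as well and 0 to 25 without 1 library. Cebpd changed sign without PNx 3 to 5 (log2 fold change -0.0533, and -0.0276 without Control Cells 4 and 5 as well).

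The replicate numbers do not pair the samples. The correlations of same-numbered PNx and Sham deviations were -0.0389, -0.0458, 0.163, -0.0995 and -0.197, and 1 of 5 samples (number 3) matched its own number best. With the replicate number as a block, 2803 genes were called, 1136 as rises and 1667 as falls. Depth limits genes of a few CPM, among them those of mitosis.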
